A study of Sus scrofa with 9 samples.

Results

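Collagen chain genes were taken as the gene rows whose symbol is COL, a number, A and a number, which gave 42 of the 19535 gene rows. They were measured by RNA sequencing of porcine valvular interstitial cells (PVICs), the fibroblast-like cells of the aortic valve leaflet, in 3 groups of 3 libraries. The cells came from wild type pigs aged 4 to 5 months and were grown with serum in DMEM, a standard basal culture medium. The control group stayed in DMEM. The OIM group received osteogenic medium, which held ascorbic acid at 50 µg/mL, insulin at 1e-07 mol/L and sodium dihydrogen phosphate at 2 mmol/L, and the bFGF group received the same medium with 50 ng/mL basic fibroblast growth factor added. Treatment lasted 3 days according to the labels, while the methods give a shorter time. The bFGF group therefore carries every component of OIM, ascorbic acid included, and bFGF alone was not sampled. The methods state that passaged cells were used and that all samples were in triplicate, but nothing says whether the replicates came from separate cultures or animals, so p-values measure only the spread between these libraries.

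Collagens are secreted proteins of 3 chains wound into a triple helix. The helix can only close around glycine, so the chains repeat the triplet glycine-X-Y. Fibrillar collagens (types I, II, III, V, XI, XXIV and XXVII) form the long fibrils that carry tension in a valve leaflet. Type IV chains form the network of basement membranes. FACITs (fibril-associated collagens with interrupted triple helices) lie on the surface of fibrils. The remaining members include the type VI beaded filaments around cells, the type VIII and X hexagonal networks, the type VII anchoring fibrils, the transmembrane collagens and the multiplexins XV and XVIII. In the valve, interstitial cells make most of this matrix, and ascorbic acid is the cofactor of the enzymes that hydroxylate collagen prolines and lysines.

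The genes carry the repeat in their exons. In fibrillar genes many coding exons are 54 bases long, which encodes 6 triplets. Exon 8 of 51 of COL1A1, the main chain of type I collagen, is shown because it displays this unit. It lies at chr12:26393098-26393151 on the minus strand (Sscrofa11.1, RefSeq), is read here 5′ to 3′, and its 6 glycine codons are in capitals.
COL1A1 exon 8: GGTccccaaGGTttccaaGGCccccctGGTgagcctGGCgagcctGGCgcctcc
The 11 fibrillar genes held 21 to 33 coding exons of this length, against 0 to 27 in the 31 other members. The longest uninterrupted run of glycine triplets was 174 to 343 in the fibrillar genes and 23 to 113 in the other members. It was 338 in COL1A1, 339 in COL1A2 and 343 in COL3A1, whereas the 6 type IV genes held 39 to 66. Runs were read from the genome in the annotated frame, so a fault in the assembly or gene model would shorten them. The lowest fibrillar value, 174, was that of COL2A1, and the model of COL6A3 held 1 stop codon inside.

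The sequence before the gene start is shown for 4 members. COL1A1 and COL1A2 encode the chains of 1 trimer and were the most abundant members, and COL7A1 and COL17A1 were the only members with an AP-1 match in this window. Each is the 250 bases before the annotated start, 5′ to 3′ on the gene's strand (Sscrofa11.1, RefSeq), with matches to the motifs searched, on either strand, in capitals. The motifs were the TATA box (TATAAA), the CCAAT box (CCAAT), the GC box (GGGCGG), AP-1 (TGANTCA) and ETS (CCGGAA).
COL1A1 (chr12:26397181-26397430, minus strand): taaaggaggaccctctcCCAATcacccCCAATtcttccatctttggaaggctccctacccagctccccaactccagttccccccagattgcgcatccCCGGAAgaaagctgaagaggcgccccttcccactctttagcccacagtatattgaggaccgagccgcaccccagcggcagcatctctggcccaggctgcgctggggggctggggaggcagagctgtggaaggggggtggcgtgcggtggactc
COL1A2 (chr9:74174234-74174483, plus strand): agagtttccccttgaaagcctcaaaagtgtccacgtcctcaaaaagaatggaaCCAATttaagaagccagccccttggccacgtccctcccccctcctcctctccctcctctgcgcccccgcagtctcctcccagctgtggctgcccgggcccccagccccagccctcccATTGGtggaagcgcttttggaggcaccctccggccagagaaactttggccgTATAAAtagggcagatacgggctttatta
COL7A1 (chr13:31295113-31295362, minus strand): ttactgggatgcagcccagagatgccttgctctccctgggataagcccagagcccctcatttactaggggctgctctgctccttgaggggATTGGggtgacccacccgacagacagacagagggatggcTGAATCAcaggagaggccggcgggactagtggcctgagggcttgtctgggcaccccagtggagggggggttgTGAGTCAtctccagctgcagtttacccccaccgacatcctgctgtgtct
COL17A1 (chr14:115007735-115007984, minus strand): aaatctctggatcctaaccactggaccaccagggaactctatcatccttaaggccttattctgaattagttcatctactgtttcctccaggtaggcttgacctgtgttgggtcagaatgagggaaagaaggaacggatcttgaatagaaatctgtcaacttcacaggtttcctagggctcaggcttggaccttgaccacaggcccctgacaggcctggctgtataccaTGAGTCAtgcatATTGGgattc
COL1A2 held TATAAA beginning 29 bases before the start and CCAAT boxes at 197 and 80 bases. In its window COL1A1 held no TATAAA, and it held CCAAT boxes at 233 and 223 bases and an ETS match at 153 bases. In COL7A1, AP-1 matches stood at 121 and 49 bases before the start, and in COL17A1 at 22 bases. Over all 42 members, TATAAA was found in 8 (19.0%, against 9.8% of 19556 promoters of the same length) and CCAAT in 18 (42.9%, against 31.9%). GGGCGG was found in 20 members (47.6%, against 45.9%), TGANTCA in 2 (4.8%, against 5.3%) and CCGGAA in 5 (11.9%, against 13.6%). These matches describe the letters in the window and were not tested as binding sites. The window follows the annotated start, which was not checked, so a motif absent from it may lie near another start.

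Gene counts per library ranged from 46773376 to 67371523, and the 3 bFGF libraries were the shallowest (46773376 to 48270827). Levels are given as CPM, the count per 1e6 counts of the library, scaled by the trimmed mean of M-values (TMM), and levels of different genes are compared only per kilobase of exon. Of the 42 members, 34 had enough counts for testing. COL10A1, COL19A1, COL20A1 and COL22A1 had no count in any library, where 3 counts, the upper limit that a count of 0 allows, equal 0.046 to 0.058 CPM. COL11A2 (2 counts in control library 1), COL28A1 (1 count in control library 2), COL25A1 (0 to 8 counts per library) and COL9A1 (2 to 14 counts) were also not tested. The type VI chains COL6A1 and COL6A2 were not analysed here, so every share of collagen counts or transcripts given here, of the classes too, was computed without them. OIM library 2 stood apart from the other OIM libraries, with a mean chi-square per gene of 19 and 19.1 against them, whereas the remaining pairs within a group gave 4.69 to 11.6. Values without it are given beside some of the results. Of the 8 markers listed for the labelled cell type, VIM (5499 to 9069 CPM) and PDGFRA (1667 to 2440 CPM) were the highest over the 9 libraries. TCF21 was the lowest, at 4.08 to 10.3 CPM. Smooth muscle and myofibroblast markers, given further below, summed to 9968 to 13570.4 CPM in control and OIM and 1610.2 to 1798 in bFGF. The summed CPM of the 8 endothelial markers was 20.8 to 38.8, and the cardiomyocyte genes TNNT2 and NPPA were at 0 in all libraries, while TTN of the same list was at 13.6 to 50.5 CPM.

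Collagen genes took 8.29% ± 0.25 (SD, n = 3) of all gene counts in the control group, 7.97% ± 0.21 in the OIM group and 4.64% ± 0.036 in the bFGF group. By library the share was 8.07%, 8.56% and 8.24% in control, 8.14%, 7.74% and 8.03% in OIM, and 4.64%, 4.68% and 4.61% in bFGF. All bFGF libraries lay below all others, a difference of -3.32 percentage points from OIM and -3.64 from control (exact permutation p = 0.1 each, two-sided, which is the smallest p that 3 against 3 libraries allow). OIM and control overlapped (difference -0.32, exact permutation p = 0.2). With each gene's counts divided by its exon length, the share was 4.36% ± 0.16 in control, 4.23% ± 0.10 in OIM and 2.31% ± 0.014 in bFGF. Without the 2 most abundant members, COL1A1 and COL1A2, the share was 3.94% ± 0.082 in control, 3.90% ± 0.11 in OIM and 2.57% ± 0.026 in bFGF. In bulk RNA, fewer cells of a type and less RNA per cell cannot be told apart.

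**Figure D1:**
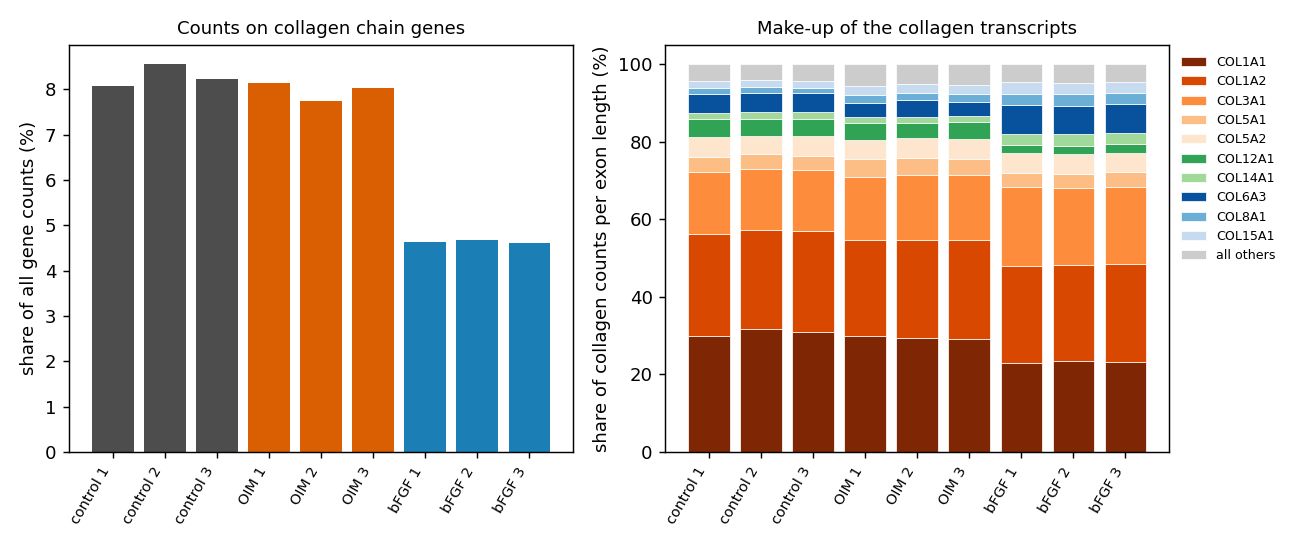
Left, share of all gene counts on the 42 collagen genes (y axis, percent) in each of the 9 libraries (x axis, coloured by group); right, share of each chain in the collagen counts per exon length (y axis, percent) in the same libraries. The bFGF bars at left lie between 4.61% and 4.68%, all below the control and OIM bars, and at right their COL1A1 segment is smaller and their COL3A1 and COL6A3 segments larger than in the other libraries.

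Per kilobase of exon, COL1A1 was the third most abundant gene of the whole table in the control and OIM groups and the seventh in the bFGF group. Its level was 4398 ± 299 CPM per kilobase in control, 4079 ± 183 in OIM and 1610.0 ± 36.1 in bFGF (SD, n = 3). COL1A2 was at 3713 ± 80.5, 3491 ± 121 and 1740.3 ± 9.62 CPM per kilobase in the same order, below COL1A1 in control and OIM and above it in bFGF. COL3A1, which encodes type III collagen of distensible tissues, stood at 2244 ± 80.8, 2284 ± 63.4 and 1385 ± 22.7 CPM per kilobase. In control, COL5A2 (718 ± 11.8), COL6A3 (695 ± 48.9), COL12A1 (636 ± 15) and COL5A1 (549 ± 24.3 CPM per kilobase) came next. COL15A1 (262 ± 4.04), COL14A1 (239 ± 6.86), COL4A1 (229 ± 6.69), COL8A1 (212 ± 1.28) and COL4A2 (160.1 ± 4.09 CPM per kilobase) followed. Of neighbours in this order, COL5A2 and COL6A3, COL6A3 and COL12A1, and COL14A1 and COL4A1 differed by less than the sum of their SDs. Every other member was below 100 CPM per kilobase in control, with COL11A1 at 91.8 ± 1.67 as the highest of them.

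**Figure D2:**
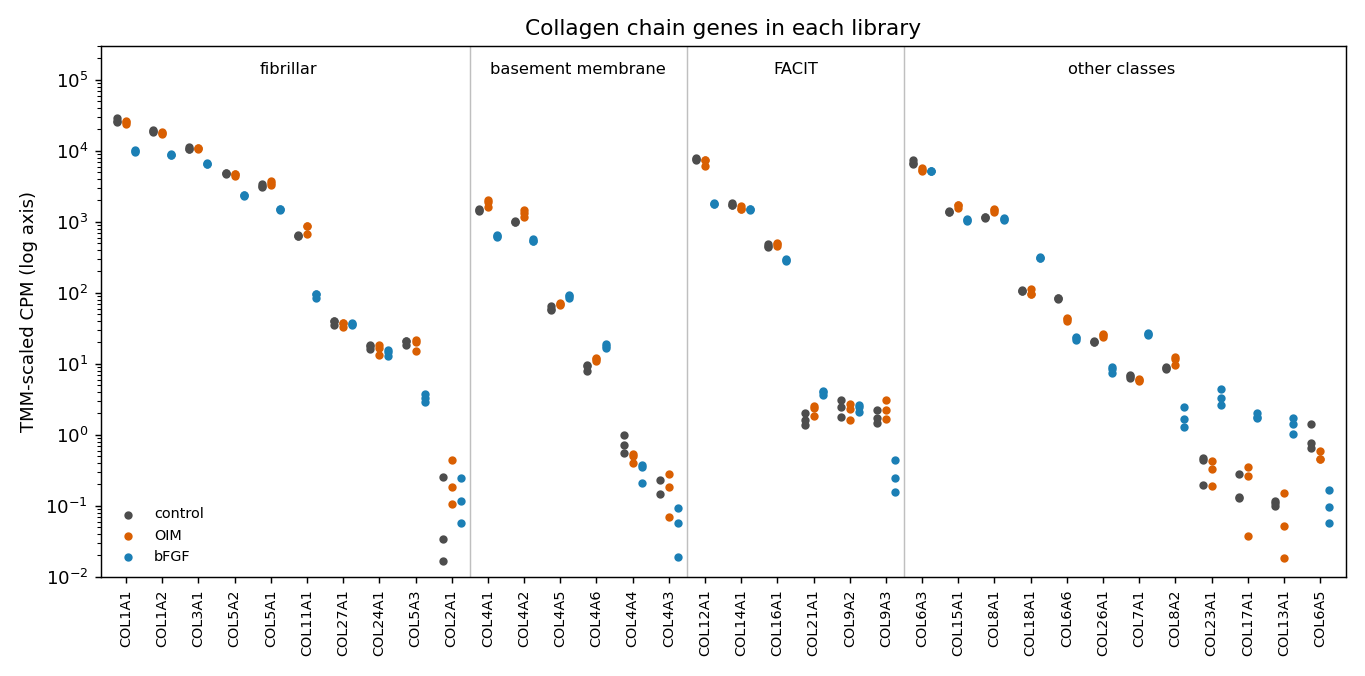
TMM-scaled CPM (y axis, log axis) of the 34 tested collagen genes (x axis, by class and then by mean level) in each library; each point is 1 library, coloured by group. A library at 0 counts (COL4A3, control library 3) has no point. The bFGF points of COL1A1 to COL11A1, COL4A1, COL4A2 and COL12A1 lie below those of the other groups, and those of COL18A1, COL7A1, COL23A1, COL17A1 and COL13A1 above.

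Comparing OIM with control asks what osteogenic medium did to collagen transcripts. Of 34 tested members 1, COL6A6, was called lower (2.94%) and 0 were called higher. Of all 13662 genes tested 2.35% were called, 1.49% higher and 0.864% lower, so the members' share was near that of all genes. A call needed a Benjamini-Hochberg adjusted p of at most 0.05 in edgeR's quasi-likelihood test and a log2 fold change of at least 0.5 in size. At an unadjusted p under 0.05 with the same fold limit, 0 members were higher and 2 lower, and DESeq2 called 0 higher and 1 lower. The median log2 fold change of the members was -0.004, against -0.0019 over all genes tested.

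COL6A6, a chain of the type VI filaments that surround cells, was at 82.6, 83.3 and 84.5 CPM in the control libraries, at 40.3, 43.7 and 43.2 in OIM and at 23.7, 21.3 and 23.2 in bFGF. The 3 groups did not overlap, and each step was downward. The log2 fold change was -0.98 ± 0.051 (SE) in OIM against control (edgeR adjusted p = 1.22e-10) and -0.90 ± 0.054 in bFGF against OIM (edgeR adjusted p = 9e-12). Its neighbour COL6A5, another type VI chain 43574 bases away on the same strand, had 77, 40 and 46 counts in control, 25, 30 and 34 in OIM and 9, 5 and 3 in bFGF. It passed the test in bFGF against OIM (log2 fold change -2.21 ± 0.54, edgeR adjusted p = 0.00122) but not in OIM against control (-0.90 ± 0.43, edgeR adjusted p = 0.188). COL6A3, the abundant chain of this class, was at 6543, 7475 and 6761 CPM in control, 5424, 5662 and 5207 in OIM and 5118, 5226 and 5146 in bFGF. All OIM libraries lay below all control libraries, while OIM and bFGF overlapped. Its log2 fold change in OIM against control was -0.35 ± 0.042, which had an edgeR adjusted p of 7.46e-06 but was under the fold limit.

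Smaller shifts were measured under OIM. With the adjusted p alone, 12 of 34 members passed (35.3%, against 13.6% of all genes tested), 9 higher (background 7.69%) and 3 lower (background 5.87%). In 17 members (50%, against 28.8% of all genes tested) the libraries of the 2 groups did not overlap. The basement membrane genes held 4 of the 9: COL4A2 (log2 fold change 0.41 ± 0.051, edgeR adjusted p = 1.4e-05), COL4A1 (0.35 ± 0.058), COL4A6 (0.38 ± 0.092) and COL4A5 (0.19 ± 0.050). The median over all 6 basement membrane genes tested was 0.365, and 0.234 without OIM library 1. The remaining 5 were COL8A1 (0.34), COL11A1 (0.33), COL26A1 (0.28), COL15A1 (0.27) and COL5A1 (0.14), and besides COL6A6 and COL6A3 the FACIT COL14A1 was lower (-0.17). Without OIM library 2 the values of COL4A1 (0.44), COL4A2 (0.48) and COL11A1 (0.44) were larger and still under the fold limit.

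COL4A1 and COL4A2, whose chains join in 1 trimer, were the most abundant basement membrane members per kilobase. COL4A1 was at 1458, 1510.1 and 1425 CPM in control, 2055, 1623 and 1917 in OIM and 622, 658 and 608 in bFGF. COL4A2 was at 983, 1024 and 977 CPM in control, 1444, 1183 and 1325 in OIM and 544, 571 and 534 in bFGF. In both genes every OIM library was above every control library, OIM library 2 was the lowest of its group, and every bFGF library was below all others. The genes lie head to head on chromosome 11, and their annotated spans overlap by 525 bases without a shared exon base.

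Adding bFGF to OIM moved most collagen genes. Of the 34 tested, 24 were called (70.6%, against 36.2% of all genes tested). Of these 7 were higher (20.6%, against 17.7% of all genes) and 17 lower (50%, against 18.4%), and the median log2 fold change was -0.728. The libraries did not overlap in 28 members (82.4%, against 72.1% of all genes tested). Among the fibrillar genes 7 of 10 were lower and 0 higher by edgeR, with the same counts by DESeq2 and at an unadjusted p under 0.05 with the fold limit. Of the basement membrane genes 1 of 6 was higher and 2 lower, and of the FACITs 1 of 6 was higher and 3 lower. The other classes split evenly, with 5 of 12 higher and 5 lower. COL13A1 passed the count filter only through the bFGF libraries, and without it 23 of 33 were called (69.7%), 6 higher and 17 lower, with a median of -0.734. All 24 calls held in each of the 9 fits that left out 1 library.

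**Figure D3:**
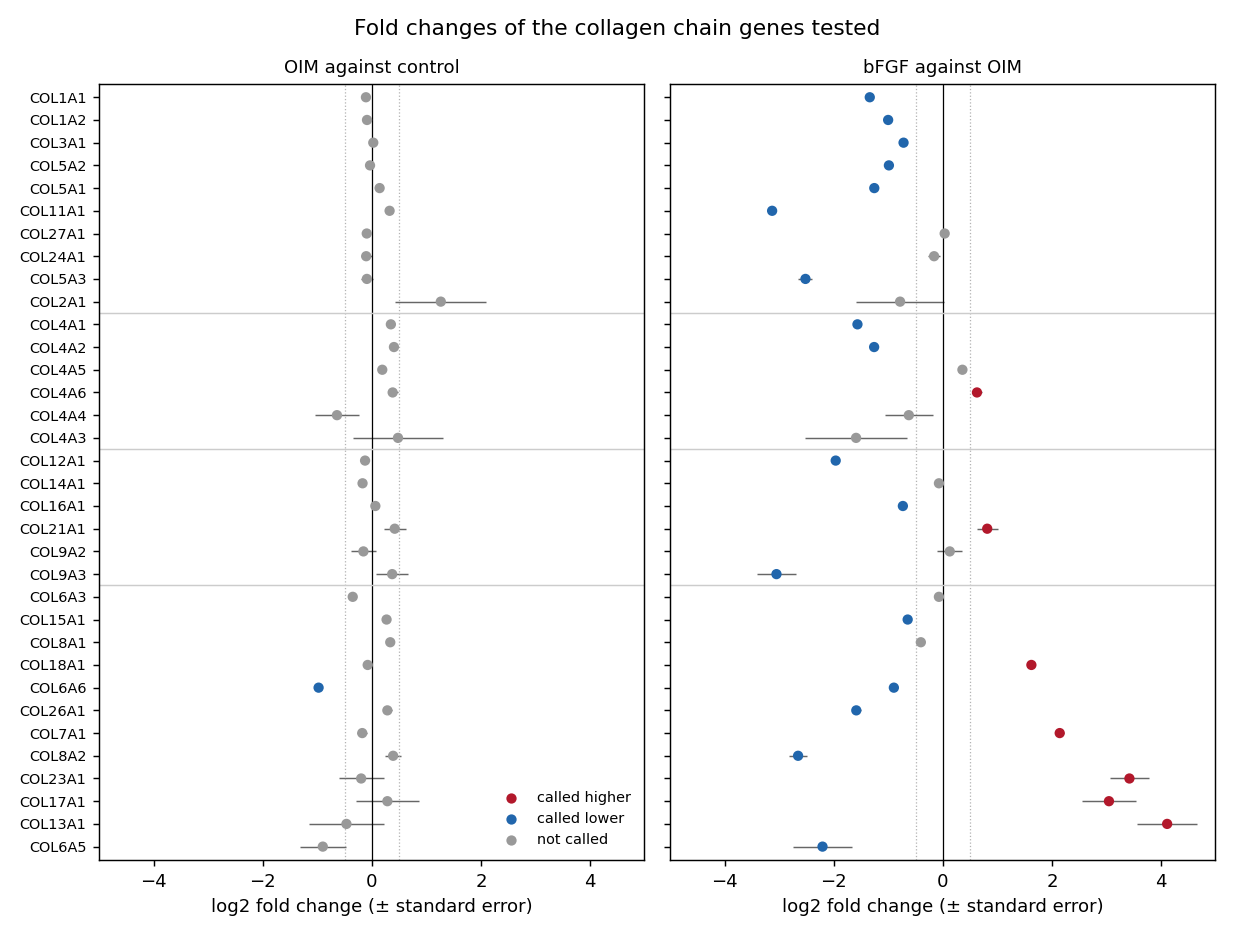
Log2 fold changes (x axis) with their standard errors of the 34 tested collagen genes (y axis, in the order of classes fibrillar, basement membrane, FACIT and other, divided by lines) in OIM against control (left) and bFGF against OIM (right); dotted lines mark the fold limit of 0.5 and colours the calls. At left 1 point is called, COL6A6; at right 17 are called lower and 7 higher, from -3.13 (COL11A1) to 4.11 (COL13A1).

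The type I, III and V chains, which build the main fibrils, all fell in bFGF against OIM. COL1A1 was at 25370.4, 28994 and 26642 CPM in control, 26115, 23879 and 25146 in OIM and 9735, 10140.2 and 9782 in bFGF. COL1A2 was at 18585, 19347 and 18706 CPM in control, 18049.6, 17042 and 18161 in OIM and 8795, 8865 and 8889 in bFGF. Neither bFGF range came near the other groups, and the log2 fold changes were -1.34 ± 0.042 for COL1A1 (edgeR adjusted p = 4.76e-16) and -1.004 ± 0.031 for COL1A2 (edgeR adjusted p = 3.96e-16). COL3A1 was at 10441, 11142 and 10514 CPM in control, 11032, 10546 and 11100.0 in OIM and 6709, 6614 and 6493 in bFGF, a log2 fold change of -0.72 ± 0.033 against OIM (edgeR adjusted p = 1.32e-13). With library totals in place of TMM it was -0.50 and lost its call, as did COL15A1 (-0.42), while the median of all genes moved by 0.22.

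Type V collagen starts type I fibrils and limits their diameter. COL5A1 was at 3133, 3389 and 3149 CPM in control, 3776, 3349.8 and 3548 in OIM and 1459.6, 1506 and 1497 in bFGF. COL5A2 was at 4836, 4795 and 4684 CPM in control, 4763, 4471 and 4753 in OIM and 2373, 2363 and 2304 in bFGF. The bFGF libraries of both genes lay below all others, with log2 fold changes against OIM of -1.26 ± 0.041 (COL5A1) and -0.99 ± 0.033 (COL5A2). COL5A2 lies 16177 bases from COL3A1 on chromosome 15, and these neighbours are transcribed from opposite strands.

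Among the fibrillar genes, the larger falls were in minor chains. COL11A1, a type XI chain best known from cartilage fibrils, was at 655, 635 and 634 CPM in control, 875, 677 and 859.9 in OIM and 95.4, 96.1 and 83.6 in bFGF. The fall against OIM was 8.77-fold (log2 fold change -3.13 ± 0.075, edgeR adjusted p = 1.03e-17). Of its exon bases, 1.72% and 3.43% overlap opposite-strand non-coding genes. COL5A3, the third type V chain, was at 18.5, 21.2 and 20.9 CPM in control, 20.1, 15.1 and 21.7 in OIM and 2.89, 3.33 and 3.69 in bFGF, a 5.74-fold fall against OIM (log2 fold change -2.52 ± 0.13). The other fibrillar genes, COL24A1 (-0.16 ± 0.10), COL27A1 (0.03 ± 0.061) and COL2A1 (-0.79 ± 0.80 at 1 to 25 counts per library), were not called. With 1 library left out, COL24A1 ranged from -0.284 to -0.062 and COL2A1 from -1.459 to -0.053.

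Outside the fibrils, COL12A1 fell while COL14A1 gave no call, although both FACITs coat type I fibrils. Against OIM, the bFGF group had a log2 fold change of -1.97 ± 0.054 in COL12A1 (edgeR adjusted p = 6.5e-17) and of -0.07 ± 0.037 in COL14A1 (edgeR adjusted p = 0.0869). The value of COL14A1 was -0.017 without OIM library 2 and turned to 0.149 with library totals (edgeR adjusted p = 0.00138), under the fold limit in both. The type IX gene COL9A3 had 123, 103 and 87 counts in control, 120, 201 and 96 in OIM and 13, 23 and 8 in bFGF (log2 fold change -3.05 ± 0.36), and 8.1% of its exon bases overlap the opposite-strand gene TCFL5. COL16A1 fell by 0.73 on the log2 scale, and the low-abundance COL21A1 rose by 0.81. Of the type VIII chains, COL8A2 was at 8.61, 8.35 and 9.01 CPM in control, 12.6, 9.69 and 11.8 in OIM and 1.29, 2.44 and 1.67 in bFGF (log2 fold change against OIM -2.66 ± 0.17), whereas COL8A1 had -0.40 ± 0.033 and was under the fold limit. COL26A1 (-1.59), COL15A1 (-0.65) and the type IV pair COL4A1 (-1.57 ± 0.059) and COL4A2 (-1.26 ± 0.052) complete the members that fell.

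The transmembrane collagens, which span the cell surface with a collagenous ectodomain, had low counts. COL23A1 and COL17A1 were called higher in bFGF than in OIM. COL23A1 had 26, 12 and 26 counts in control, 18, 28 and 11 in OIM and 179, 230 and 136 in bFGF (log2 fold change against OIM 3.42 ± 0.36, edgeR adjusted p = 4.66e-08). COL17A1, the hemidesmosome collagen of epithelia, had 7, 17 and 8 counts in control, 2, 23 and 15 in OIM and 96, 107 and 89 in bFGF (3.05 ± 0.49, edgeR adjusted p = 1.51e-05, and 2.57 to 3.61 with 1 library left out). COL13A1 had 6, 7 and 6 counts in control, 1, 10 and 3 in OIM and 91, 54 and 74 in bFGF. It reached the level of the count filter only in the bFGF libraries, so that to be tested it had to be higher there, and its log2 fold change against OIM of 4.11 ± 0.55 (5.21 without OIM library 2) is a description. COL25A1, not tested, is the remaining gene of this class. In COL23A1, COL17A1 and COL13A1 every bFGF library was above every other library. Their levels remained low, at 3.46 ± 0.91, 1.85 ± 0.18 and 1.39 ± 0.33 CPM (SD, n = 3) in bFGF.

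COL7A1, the chain of the anchoring fibrils that tie epithelial basement membranes to the stroma, was at 6.33, 6.72 and 7.05 CPM in control, 5.90, 6.20 and 5.67 in OIM and 25.6, 26.9 and 26.0 in bFGF. The rise against OIM was 4.42-fold (log2 fold change 2.14 ± 0.084, edgeR adjusted p = 1.41e-14). COL18A1, the multiplexin from which endostatin is cut, was at 106, 111 and 106 CPM in control, 97.2, 113 and 96.4 in OIM and 318, 314 and 312 in bFGF, a 3.08-fold rise (log2 fold change 1.62 ± 0.049, edgeR adjusted p = 2.66e-16). Per kilobase it was the most abundant member that rose. The X-linked COL4A6 rose by 0.62 ± 0.089 on the log2 scale, and its neighbour COL4A5 had 0.36 ± 0.050 (edgeR adjusted p = 2.41e-06), under the fold limit. With library totals COL4A5 was 0.58 and called.

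The comparison of bFGF with control uses the same bFGF libraries and is not a second test of them. It called 25 of 34 members (73.5%, against 39% of all genes tested), 8 higher (background 18.9%) and 17 lower (background 20%), with a median log2 fold change of -0.683, or without COL13A1 24 of 33, 7 higher, and -0.696. The 5 members furthest down were COL6A5 (-3.11 ± 0.52), COL11A1 (-2.81 ± 0.074), COL9A3 (-2.68 ± 0.36), COL5A3 (-2.61 ± 0.13) and COL8A2 (-2.27 ± 0.17). COL1A1 (-1.45 ± 0.042) and COL1A2 (-1.09 ± 0.031) were also lower. COL4A5 (0.55 ± 0.050) and COL4A6 (1.01 ± 0.091) were both called higher here. COL4A4 was called lower (-1.26 ± 0.43) from 11 to 54 counts per library, and this call was lost without control library 1 (-1.02) or bFGF library 2 (-1.06). COL15A1 (-0.38 ± 0.036) was not called. The libraries did not overlap in 30 members (88.2%, against 73.7% of all genes tested).

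The proportions of the chains also differed between groups. Ratios of counts per exon length within a library do not depend on scaling between libraries, and 10 pairs were compared. COL1A1 over COL1A2 was 1.13, 1.24 and 1.18 in the control libraries, 1.198, 1.16 and 1.147 in OIM and 0.917, 0.947 and 0.911 in bFGF. The bFGF ratios lay below all others, and OIM and control overlapped. COL3A1 over COL1A1 was 0.530, 0.495 and 0.508 in control, 0.544, 0.569 and 0.568 in OIM and 0.888, 0.840 and 0.855 in bFGF, so that the groups did not overlap. COL4A1 over COL4A2 was 1.43 ± 0.012 (SD, n = 3), 1.38 ± 0.038 and 1.11 ± 0.0066 in the same order. COL14A1 over COL12A1 was 0.376 ± 0.0052, 0.368 ± 0.060 and 1.35 ± 0.045, and its bFGF libraries lay apart while the others overlapped. COL8A1 over COL1A1 was 0.0484 ± 0.0032, 0.0658 ± 0.00065 and 0.126 ± 0.0020. In bFGF against OIM all 10 pairs were without overlap (exact permutation p = 0.1 each, adjusted p = 0.1 over the pairs), the smallest p this design allows.

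**Figure D4:**
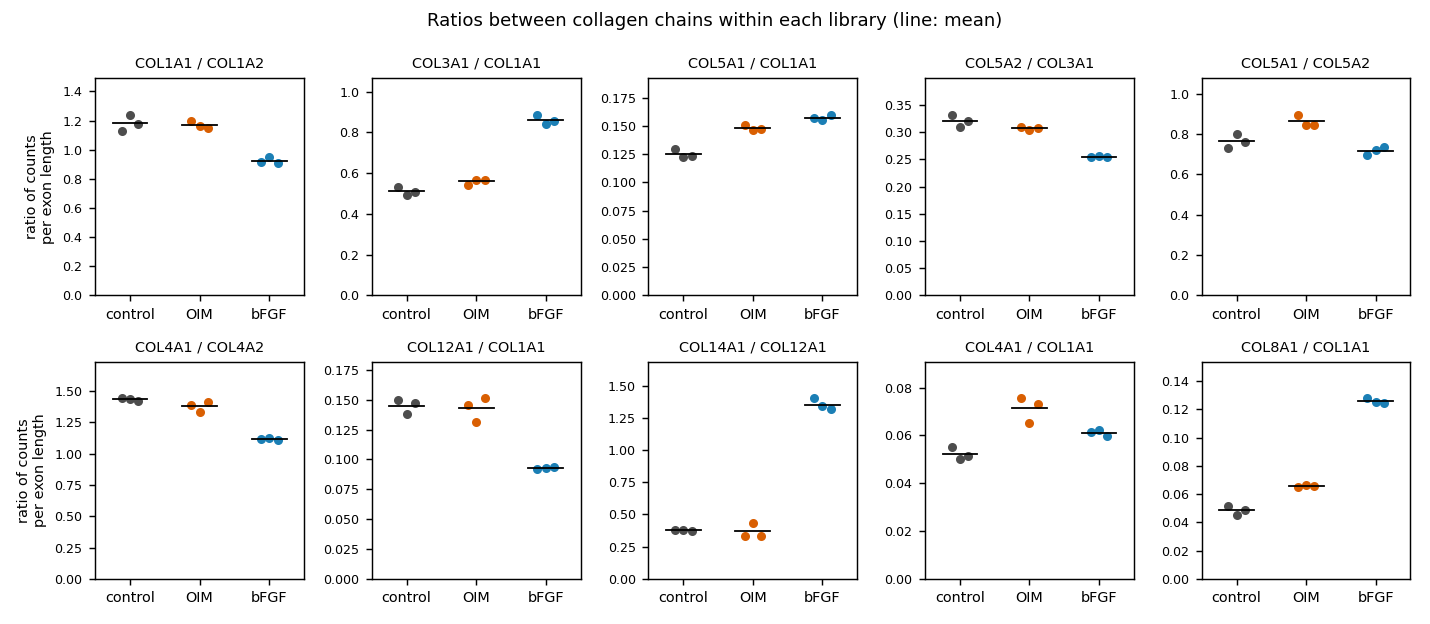
Ratios of counts per exon length between 10 pairs of collagen chains (y axes, each from 0) in the control, OIM and bFGF libraries (x axes); points are libraries and lines group means. COL1A1 over COL1A2 drops from a mean of 1.17 in OIM to 0.925 in bFGF, COL3A1 over COL1A1 rises from 0.560 to 0.861 and COL14A1 over COL12A1 from 0.368 to 1.35.

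As shares of the collagen transcripts per exon length, COL1A1 made up 30.8% ± 0.89 in control, 29.5% ± 0.31 in OIM and 23.2% ± 0.30 in bFGF (SD, n = 3). COL1A2 made up 26.0% ± 0.47, 25.2% ± 0.31 and 25.1% ± 0.31 in the same order, and its OIM and bFGF libraries overlapped. The share of COL3A1 was 15.7% ± 0.099, 16.5% ± 0.26 and 19.95% ± 0.33, and that of COL6A3 was 4.86% ± 0.15, 3.95% ± 0.31 and 7.46% ± 0.045. All fibrillar genes together held 82.1% ± 0.11, 81.6% ± 0.14 and 77.2% ± 0.19. Basement membrane genes held 2.80% ± 0.056, 3.73% ± 0.26 and 2.93% ± 0.073, FACITs 6.68% ± 0.099, 6.34% ± 0.15 and 5.78% ± 0.061, and the other classes 8.42% ± 0.040, 8.38% ± 0.31 and 14.1% ± 0.054. The basement membrane share was thus higher in OIM than in either other group, without overlap (exact permutation p = 0.1 each). In bFGF, COL6A3, COL8A1 (2.92%) and COL15A1 (2.90%) held most of the share of the other classes. A larger share is not a higher level. In bFGF against OIM the log2 fold changes of COL3A1 (-0.72), COL6A3 (-0.07), COL8A1 (-0.40) and COL15A1 (-0.65) were negative.

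Genes that fold, cross-link, bind or degrade collagen were read from lists. In bFGF against OIM, 19 of 31 tested genes of collagen folding and processing were called (61.3%, against 36.2% of all genes tested), 13 lower (background 18.4%) and 6 higher (background 17.7%). The prolyl 4-hydroxylase subunits P4HA1 and P4HA2, which stabilise the helix, had log2 fold changes of -2.25 ± 0.038 and -2.03 ± 0.038, the lysyl oxidase LOXL2, which cross-links fibrils, -1.99 ± 0.038, and the lysyl hydroxylase PLOD2 -1.89 ± 0.042. Other members of these families went the other way. The subunit gene P4HA3 was at 49.5 to 52.9 CPM in OIM and 70.6 to 79.1 in bFGF, and LOXL1 at 85.4 to 92.3 and 126 to 145. P4HA1 fell from 591, 609 and 615 CPM in OIM to 130.3, 129 and 123 in bFGF, and was at 771, 744 and 725 in control. In OIM against control edgeR called 0 of these genes higher (1 at an unadjusted p under 0.05 with the fold limit, 0 by DESeq2) and 2 lower (6.45%, against 0.864% of all genes tested), LOXL2 (-0.70 ± 0.036) and the galactosyltransferase COLGALT2 (-0.79 ± 0.21).

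Of 8 tested collagen receptors, 4 fell and 2 rose when bFGF was added to OIM (75% called, against the same 36.2% of all genes tested). The integrin gene ITGA2 was at 9.04, 12.7 and 9.52 CPM in OIM and 227, 224 and 205 in bFGF (log2 fold change 4.39 ± 0.084), and ITGA10 rose by 1.26 ± 0.075. ITGA11, whose integrin binds fibrillar collagen, fell by 2.19 ± 0.065 and ITGA1 by 1.04 ± 0.054 on the log2 scale. Of 10 collagen-degrading enzymes, 2 were higher and 5 lower (70% called). The interstitial collagenase MMP1 was at 7.84, 15.4 and 9.42 CPM in OIM and 461, 456 and 453 in bFGF (log2 fold change 5.37 ± 0.14), and MMP3 had 1.88 ± 0.23, while MMP15 (-0.86) and MMP9 (-0.84) were lower. In OIM against control 0 receptors were called by edgeR, by DESeq2 or at an unadjusted p under 0.05 with the fold limit, and MMP3 (-1.003 ± 0.23) was the 1 degrading enzyme called (10% of the list, against 0.864% of all genes tested called lower).

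The small proteoglycans and other organisers of fibrils held 1 higher and 12 lower of 16 tested in bFGF against OIM (81.2% called, against 36.2% of all genes tested), with a median log2 fold change of -0.926. The thrombospondin THBS2 fell from 1429, 1063 and 1397 CPM in OIM to 100.02, 101 and 92.0 in bFGF (log2 fold change -3.73 ± 0.081). Asporin (ASPN, -2.87 ± 0.065), ECM2 (-2.31 ± 0.055) and THBS1 (-2.04 ± 0.041) were next. In OIM against control 0 of the 16 were called by edgeR, by DESeq2 or at an unadjusted p under 0.05 with the fold limit.

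Marker lists of cell types were read against the same 36.2% of all genes called in bFGF against OIM. All 7 smooth muscle and myofibroblast markers were lower in bFGF than in OIM, and the summed CPM of the list was 9968 to 10490.5 in control, 10243 to 13570.4 in OIM and 1610.2 to 1798 in bFGF. ACTA2, the actin of contractile cells, was at 9209.8, 6852 and 9286 CPM in OIM and 704, 799 and 712 in bFGF. In OIM against control 2 of the 7 were higher (28.6%, against 1.49% of all genes tested), DES (3.33 ± 0.38) and MYH11 (1.13 ± 0.14). Of the 8 valve interstitial and fibroblast markers, 3 were higher and 1 lower in bFGF against OIM (50% called), with sums of 9952 to 10468 in control, 8879.9 to 9788 in OIM and 12175 to 12355 in bFGF. The median log2 fold change of this list in bFGF against OIM was 0.035. Most of the sum was VIM, at 6129 to 6332 CPM in control, 5499 to 6067 in OIM and 8908 to 9069 in bFGF. Of the 8 endothelial markers 6 were higher and 0 lower (75% called), with sums of 21.3 to 24.1, 20.8 to 23.2 and 36.3 to 38.8 CPM in the same order. Of the 6, KDR had 2, 6 and 2 counts in control, 0, 24 and 8 in OIM and 57, 52 and 76 in bFGF. CLDN5 had 1, 4 and 17 in control, 8, 1 and 1 in OIM and 20, 17 and 16 in bFGF. Neither would have passed the count filter without its bFGF counts, so their rise is a description. Of 5 tested blood cell and macrophage markers, 2 were lower (40% called, sums 14.5 to 17.98, 15.6 to 16.7 and 8.92 to 9.47 CPM).

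Of 6 tested chondrocyte markers 2 were higher and 3 lower in bFGF against OIM (83.3% called, sums 319 to 334, 309 to 351 and 238 to 242 CPM), CNMD was at 0 throughout, and MATN3 and ACAN were the 2 called higher in OIM against control (33.3%, against 1.49% of all genes tested). Of 5 tested osteoblast markers 1 was higher and 1 lower in bFGF against OIM (40% called, sums 76.0 to 82.2, 84.5 to 86.9 and 55.6 to 59.3 CPM). Their median log2 fold change was 0.058. SPP1 was at 34.0 to 35.6 CPM in OIM and 8.88 to 10.1 in bFGF, and RUNX2 at 47.4 to 48.0 and 42.5 to 46.0. BGLAP had 24, 49 and 25 counts in OIM and 72, 74 and 35 in bFGF. Of 3 tested cardiomyocyte markers 0 were called in bFGF against OIM by edgeR, by DESeq2 or at an unadjusted p under 0.05 with the fold limit, and TTN was the 1 of the 3 that was higher in OIM against control (33.3%, against the same 1.49%, sums 14.3 to 17.7, 33.7 to 35.6 and 40.4 to 51.2 CPM). The part of these cell states in the collagen values was not tested.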

How the data were processed

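RNA from 9 libraries of PVICs was sequenced. Per the labels, ribosomal RNA was depleted from total RNA (TruSeq Stranded) and reads were processed with Trimmomatic, HISAT2 and StringTie on Sscrofa11.1. The methods instead name poly-A selection and STAR, so the preparation behind the files is uncertain. The counting program and its strand setting are not given in the sources used here. The deposited table holds estimated counts by unit, but its 19535 gene rows are whole numbers and were used unchanged. Its 9888 non-coding rows were not used, and its 6179 circular RNA rows were used only for collagen genes. It also holds 19 columns with neither name nor value.

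Genes were filtered with filterByExpr and tested in 1 fit of 3 groups with edgeR 4.0.16 (TMM, glmQLFit, glmQLFTest, R 4.3.3), with Benjamini-Hochberg adjustment over 13662 genes. The thresholds were those of the study (adjusted p of at most 0.05 and log2 fold change of at least 0.5). The code was tested on simulated data. Shares and ratios were compared by two-sided exact permutation tests. Exon lengths and sequences came from RefSeq for Sscrofa11.1, and 19510 gene rows, with all 42 members, matched a RefSeq symbol. Named with values in every library were the main type I, III, IV, V and VI chains, and in each comparison and direction the 5 called members with the largest change, provided their higher group averaged 10 counts or more. Of each list, up to 4 such called genes were named. The alternatives were DESeq2 1.42.0, other scalings, filters and fold limits, fits of 2 groups, a replicate block and leaving out each library. The members and lists were chosen with earlier results of these data known.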

Additional observations from a re-analysis of the deposited data

How the results depend on the processing

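The counts of members called in bFGF against OIM (7 higher, 17 lower) were the same with DESeq2, median-of-ratios factors, TMM without the 50 most abundant genes, other filters, fits of 2 groups and a replicate block, and with library totals they were 8 and 15. Replicate numbers do not pair the libraries (correlations of deviations from -0.032 to 0.0035 over 9 pairs), and the replicate block gave 0 higher and 1 lower in OIM against control and 8 higher and 17 lower in bFGF against control, as without it. Leaving out 1 library each gave 0 higher and 1 lower, 7 and 17, and 8 and 16 to 17 in the 3 comparisons. In OIM against control, no fold limit gave 9 higher and 3 lower, and a fold limit of 1 gave 0 lower. A fold limit of 1 gave 5 higher and 12 lower in bFGF against OIM, where it ended the calls of COL3A1, COL5A2, COL16A1, COL6A6, COL15A1, COL4A6 and COL21A1. In bFGF against control it gave 7 higher and 14 lower and ended those of COL3A1, COL4A2, COL16A1 and COL4A5. The share of collagen counts differed by -0.0354 percentage points in OIM against control without the 2 most abundant members. For bFGF against OIM it differed by -1.92 per exon length and -1.33 without those members, and for bFGF against control by -2.05 and -1.37. Leaving out 1 library each, the share differences ranged from -0.428 to -0.186, from -3.44 to -3.24 and from -3.75 to -3.51.

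Library totals turned the sign of uncalled genes in bFGF against OIM (COL24A1 0.060, COL14A1 0.149, COL6A3 0.148) and in bFGF against control (COL27A1 0.164, COL9A2 0.195, COL8A1 0.158). In bFGF against control they also ended the calls of COL3A1 (-0.471) and COL16A1 (-0.445). Leaving out 1 library each turned the sign of uncalled, mostly low-count genes, given here as ranges of log2 fold changes. In OIM against control these were COL5A3 (-0.199 to 0.052), COL24A1 (-0.204 to 0.017), COL4A3 (-0.105 to 1.282), COL9A2 (-0.336 to 0.044), COL17A1 (-0.26 to 0.756) and COL23A1 (-0.503 to 0.060). In bFGF against OIM they were COL27A1 (-0.019 to 0.080) and COL9A2 (-0.037 to 0.294), and in bFGF against control COL2A1 (-0.196 to 2.378) and COL9A2 (-0.211 to 0.168). The cause was not tested. Ratios with COL6A1 and COL6A2 were not run. Levels of a few CPM or less rest on few counts and limit the precision of the transmembrane, type IX and minor type IV chains.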

Other observations

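Circular RNAs, joined by back-splicing, were counted from 14 collagen genes, with 55 circles in all. COL12A1 held 11 of them, COL1A1 9 and COL1A2 7. Their junction counts summed to 63, 92 and 56 in the control libraries, 129, 92 and 62 in OIM and 26, 49 and 40 in bFGF, of 6048 to 10029 circular junction counts in a library. Set against the collagen gene counts, these were 13.7, 16.6 and 10.9 junction counts per 1e6 in control, 27.5, 17.6 and 12.8 in OIM and 11.6, 22.2 and 18.5 in bFGF, and the groups overlapped. Of the 55 circles, 38 were seen in 1 library only and 6 in at least 5. The most counted was a circle of COL6A3 (chr15:137046255-137046472, minus strand), with 23, 26 and 0 junction counts in control, 23, 23 and 8 in OIM and 0, 15 and 10 in bFGF. Such counts are too few for a comparison between groups.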
